A study of Mus musculus with 26 samples.

Results

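The genes described here encode the proteins of the cytosolic ribosome. They were taken from a microarray time course of mouse knee joints as every probe set whose annotation gave 1 gene symbol starting with Rpl or Rps and a digit, or Rplp0, Rplp1, Rplp2 or Rpsa. Symbols of the S6 kinases (Rps6k) and of pseudogenes were left out. The rule found 106 of 45101 probe sets, and keeping the probe set with the highest mean signal per gene left 50 genes of 18194. The rule used no measured difference between groups, though the members were chosen with earlier results of these data known. By name, 21 of the 50 belong to the small ribosomal subunit and 22 to the large subunit. The remaining 7 are paralogues or genes with a similar name: Rpl3l, Rpl7l1, Rpl22l1, Rpl39l, Rps27l, Rps4l and Rps19bp1. Of 77 genes for subunit proteins whose symbols fit the rule, 34 had no probe set with 1 symbol, and most of their probe sets also carried the names of processed pseudogenes.

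The samples came from the medial knee joint of male C57BL/6 mice, as a block of cartilage, subchondral bone, meniscus, synovium and joint capsule, so each value is a mean over several tissues. Unoperated joints were collected at 12 weeks of age (time 0). Joints with destabilization of the medial meniscus (DMM), a surgical model of osteoarthritis, and sham-operated joints followed at 2, 4, 8 or 16 weeks, when the mice were 14, 16, 20 or 28 weeks old. RNA of 3 mice was combined into each pool, and each pool was hybridised to 1 Affymetrix array. There were 3 pools in every group except DMM at 2 weeks, which had 2. No genetic change was used, and the operated mice, unlike those of time 0, had anaesthesia and could receive an analgesic. The p-values therefore measure the spread between pools of 3 mice.

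Each cytosolic ribosome joins a small subunit, which reads the messenger RNA, to a large subunit, which forms the peptide bonds. It is built from ribosomal RNAs and a fixed set of proteins, and the mRNAs of these proteins are among the most abundant of any cell, above all of cells that grow or divide. Many of these mRNAs begin with a run of pyrimidines at the cap, the 5′ terminal oligopyrimidine tract, through which the mTOR pathway controls their translation. A 3′ array measures the amount of the mRNA and not its translation.

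The starts of several members are shown because a run of pyrimidines near the annotated start is a feature most of them share and the choice of members did not use it. Whether such a run lies at the cap was not tested. Each line gives 30 bases, 5′ to 3′ on the gene's strand, from RefSeq's promoter windows on GRCm38.p6 (250 bases before to 50 after the annotated start). The 6 subunit genes are among those with the lowest ratios of DMM to sham at 4 weeks, and 3 paralogues follow. They were chosen after their values were seen. Capitals mark the longest run of C or T of at least 8 bases that touched the 30 bases on either side of the start.
Rps27, chr3:90213632-90213661, minus strand: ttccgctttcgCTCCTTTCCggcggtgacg
Rpl27, chr11:101442225-101442254, plus strand: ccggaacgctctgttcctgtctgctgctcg
Rpl35, chr2:39005115-39005144, minus strand: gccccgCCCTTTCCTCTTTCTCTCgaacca
Rpl37a, chr1:72711274-72711303, plus strand: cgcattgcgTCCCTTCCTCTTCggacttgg
Rps26, chr10:128626485-128626514, minus strand: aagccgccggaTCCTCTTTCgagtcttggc
Rps7, chr12:28635911-28635940, minus strand: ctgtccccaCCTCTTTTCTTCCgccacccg
Rpl39l, chr16:10170191-10170220, plus strand: aacacccactgCCTCTCCCTagctcccagg
Rpl7l1, chr17:46782647-46782676, minus strand: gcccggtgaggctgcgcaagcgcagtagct
Rpl3l, chr17:24727806-24727835, plus strand: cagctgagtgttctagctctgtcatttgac
The run was 18 bases long in Rpl35 and began 7 bases before the annotated start, and it was 9 bases long in Rps27 and began 2 bases before it. In Rpl37a and Rps7 a run of 13 bases lay after the start, and in Rpl27 the longest run had 5 bases. Such a run was found for 29 of the 44 members with a window (65.9%), against 30.5% of 27025 genes. The letters CCGGAAG on either strand, the core of ETS family sites, were in the windows of 47.7% of members and 9.93% of all genes, and in 1 of the 29 members the pyrimidine run overlapped them. The GC box GGGCGG was in 59.1% of members and 38.2% of all genes, and the YY1 core AAGATGGC in 9.09% and 3.19%. These are matches of letters in a window and not measured sites.

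Signals are log2 values, normalized by the authors, and a difference of group means on that scale is called the signal log ratio (SLR). On that scale 36 of the 50 members had a mean above 13, and 26 had a mean above 14, where the median of an array was 7.90 to 7.95. The signals of different probe sets depend on their probes and do not rank the genes. Rps29 (mean 15.19), Rps28 (14.71) and Rps3a1 (14.67) lay at the top, and Rpl14 (8.38) and Rpl3l (8.19) at the bottom among those tested. The probe set of Rps16, a small subunit protein, had a mean of 5.29 and was not tested, since only probe sets with a mean above 7.93 were, which left 49 members. The members varied little. Their median SD over the 26 arrays was 0.104, against 0.145 for all genes tested and 0.151 for the 202 other genes with a mean above 13. The smallest SDs were those of Rpl7l1 (0.0596), Rpl7 (0.072), Rps4x (0.0786), Rpl22l1 (0.0808) and Rps6 (0.0815), and the largest those of Rpl3l (0.491), Rps16 (0.259), Rpl39l (0.255), Rpl27a (0.22) and Rpl12 (0.216).

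As a check of the tissue, markers of cartilage, bone and synovium were far above the array median on every array: Col2a1 was at 10.36 to 14.19, Ibsp at 12.49 to 14.19 and Prg4 at 14.27 to 15.38. Markers of skeletal muscle (Acta1, 10.20 to 14.10) and of the marrow, erythroid (Alas2, 11.14 to 13.33) and neutrophil (S100a8, 15.40 to 15.88), were on every array too, so the blocks held marrow and, in varying amount, muscle. Between pairs of arrays the correlation over all probe sets ranged from 0.9582 to 0.996, and no arrays were identical.

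Over the time course, the ribosomal protein genes moved as a block of small differences. For each pool the median over the 49 members of the difference from the time 0 mean was taken. The 3 sham pools at 4 weeks were at 0.17, 0.27 and 0.26, and the 3 DMM pools at 4 weeks were at 0.01, -0.04 and 0.00. These groups did not overlap, and the DMM pools lay where the time 0 pools did, at -0.04, -0.01 and 0.04. The group means were 0.23 ± 0.0562 (SD, n = 3) in sham at 4 weeks, 0.13 ± 0.0763 (SD, n = 3) in sham at 2 weeks, 0.12 ± 0.126 (SD, n = 3) in DMM at 16 weeks, 0.09 ± 0.067 (SD, n = 3) in sham at 16 weeks, 0.08 ± 0.0678 (SD, n = 3) in sham at 8 weeks, 0.06 ± 0.0349 (SD, n = 3) in DMM at 8 weeks and 0.06 ± 0.0295 (SD, n = 2) in DMM at 2 weeks. In that order the ranges of each pair of neighbours overlapped. DMM at 4 weeks stood last at -0.01 ± 0.0242 (SD, n = 3), below both DMM pools at 2 weeks. One DMM pool at 16 weeks, replicate 3, was at 0.26 while the other pools of its group were at 0.04 and 0.05. The 202 other bright genes moved with the members, from 0.17 in sham to 0.02 in DMM at 4 weeks.

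**Figure D1:**
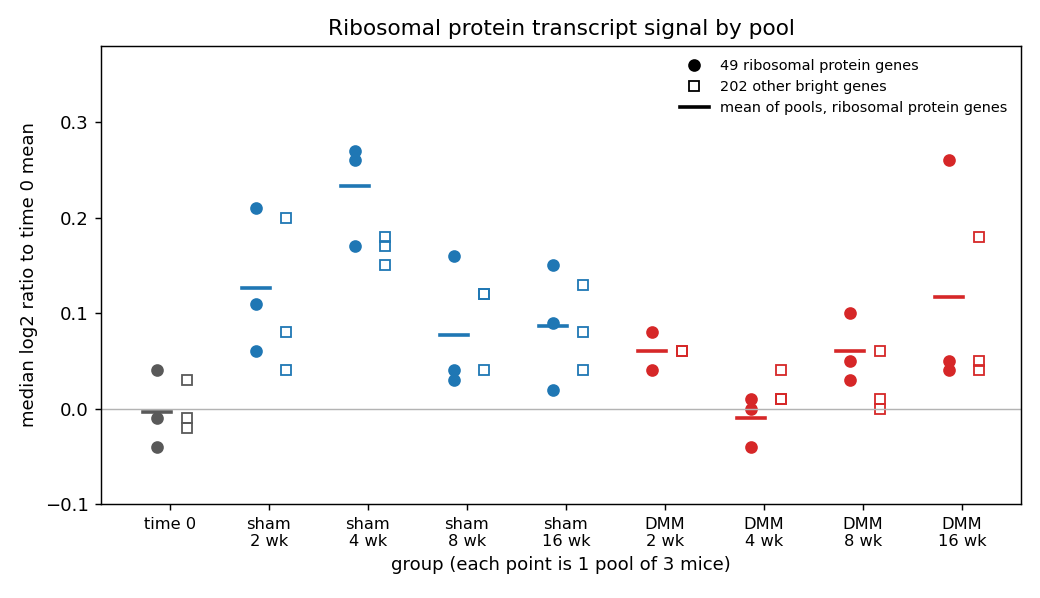
Each filled point is 1 pool and gives the median log2 ratio of the 49 ribosomal protein genes to their time 0 means (y axis) in the 9 groups (x axis), bars are means of pools, and open squares give the same median for 202 other genes with a mean log2 signal above 13. Sham pools at 4 weeks sit at 0.17 to 0.27 and DMM pools at 4 weeks at -0.04 to 0.01, with the other bright genes at 0.17 and 0.02 on average.

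The main difference was between DMM and sham at 4 weeks. There, 35 of the 49 members were lower in DMM joints and 1 was higher (limma, adjusted p under 0.05 over 22482 probe sets), where 7.05% of all 11488 genes tested were lower and 13.2% were higher. The median SLR of the members was -0.25, a level 15.7% lower, and that of all genes was -0.02. Below, a gene said to have fallen by a value was lower by it in DMM than in sham at 4 weeks. The word does not mean a fall from time 0. The 35 had SLRs from -0.36 to -0.18, and in each of them, as in the member that was higher, the 3 DMM pools did not overlap the 3 sham pools. Whether called or not, 42 members were lower without overlap and 1 was higher, where 18.7% and 20.8% of all genes were. The count rested in part on single pools, with 15 calls without sham replicate 2 and 19 without DMM replicate 2. Over the 6 settings without 1 pool, the call of Rpl22 was lost in 4 and that of Rplp0 in 3. It was lost in 2 for Rps3 and Rpl39 and in 1 for Rplp2 and Rps19. The calls of Rps27, Rpl27, Rpl8, Rpsa, Rps14, Rpl11 and Rpl13a were kept in all 6. In a block of several tissues, fewer cells with much of an mRNA and less of it per cell cannot be told apart.

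Of the small subunit, 17 of 20 members were lower, and of the large subunit, 18 of 22, with a median SLR of -0.25 in each. Of the 7 paralogues and near names none was called lower and 1 was higher, with a median of -0.01, though the DMM pools of Rpl3l, Rps27l and Rpl22l1 all lay below the sham pools. The sets were not tested against each other, and they differed in signal. Rpl7l1, Rps19bp1, Rpl39l, Rps4l and Rpl3l had mean signals of 8.19 to 10.21, and Rpl22l1 and Rps27l of 13.04 and 12.69. Genes outside the rule had median SLRs of -0.01 for means of 7.93 to 9 and -0.03 for 10 to 11. For means of 12 to 13 and 13 to 14 they had -0.13 and -0.17. The part of the signal in the contrast between the sets was not tested.

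**Figure D2:**
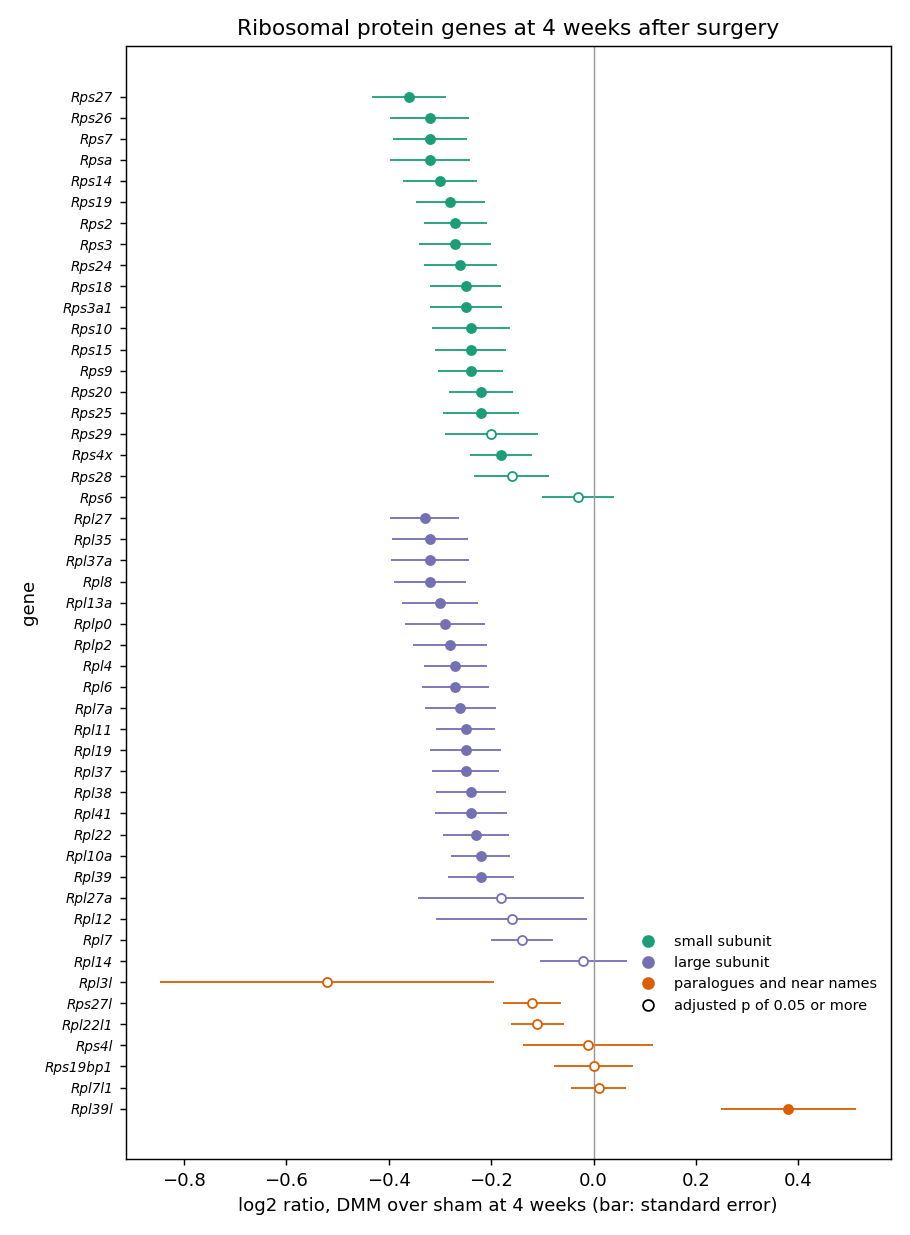
Each point is the log2 ratio of 1 gene, DMM over sham at 4 weeks (x axis), with its standard error, for the 49 genes (y axis) by role, and open points had an adjusted p of 0.05 or more. All 42 subunit genes lie below 0 and 35 of them are filled, while the paralogues spread from -0.52 for Rpl3l to 0.38 for Rpl39l.

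Among the small subunit proteins, Rps27, which holds a zinc finger, had the lowest SLR of the called members. Its signals were 13.31, 13.46 and 13.33 in the sham pools and 12.99, 12.98 and 13.05 in the DMM pools at 4 weeks. All DMM pools were below all sham pools and within the range of the time 0 pools, 12.94 to 13.10. The SLR was -0.36 ± 0.0727 (SE, limma adjusted p = 0.00277), a level 22% lower. Rpsa, which is also known as a laminin receptor, was at 14.38, 14.37 and 14.32 in sham and at 14.09, 14.00 and 14.02 in DMM, with no overlap (SLR -0.32 ± 0.0782, SE, limma adjusted p = 0.00896). Rps14, whose human counterpart is lost in the 5q- syndrome, fell by 0.30 (limma adjusted p = 0.00782). Rps19, the gene most often mutated in Diamond-Blackfan anaemia, fell by 0.28 (limma adjusted p = 0.00802). Rps3, at the entry of the mRNA channel, fell by 0.27 (limma adjusted p = 0.0124).

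Rps6, the substrate of the S6 kinases, did not pass the test. It was at 10.15, 9.92 and 9.92 in sham and at 10.04, 9.98 and 9.88 in DMM, and the groups overlapped (SLR -0.03 ± 0.0706, SE, limma adjusted p = 0.765). Another probe set of Rps6, which also carries the name of a pseudogene and was left out by the rule, fell by 0.29 (limma adjusted p = 0.0146), and one of Rps16 with several names fell by 0.31 (limma adjusted p = 0.0104). Their mean signals were 14.9 and 14.82, against 10 and 5.29 for the probe sets kept by the rule. Rps29 and Rps28, at the top of the signal range, had SLRs of -0.20 and -0.16 and adjusted p of 0.131 and 0.12 by limma. Their pools did not overlap either.

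Of the large subunit, Rpl27 was at 13.78, 13.84 and 13.80 in sham and at 13.59, 13.41 and 13.42 in DMM at 4 weeks. The DMM pools were all lower (SLR -0.33 ± 0.0667, SE, limma adjusted p = 0.00265). Rpl35, a protein near the exit of the nascent chain and the member with the longest pyrimidine run above, was at 14.50, 14.52 and 14.52 in sham and at 14.19, 14.20 and 14.17 in DMM. Both groups were tight and far apart for this scale (SLR -0.32 ± 0.0745, SE, limma adjusted p = 0.00594). The stalk proteins, which recruit the elongation factors, fell as well: Rplp0 by 0.29 (limma adjusted p = 0.013) and Rplp2 by 0.28 (limma adjusted p = 0.0107). Rplp1 had no probe set with its symbol alone. Rplp0 was at 14.67, 14.78 and 14.89 in sham and at 14.51, 14.46 and 14.49 in DMM, so its sham pools spread more than its DMM pools. Rpl11, which with the 5S RNA binds Mdm2 when ribosome assembly is disturbed, fell by 0.25 (limma adjusted p = 0.0052). Rpl13a fell by 0.30, Rpl22 by 0.23 and Rpl39, of the exit tunnel, by 0.22, each with an adjusted p under the threshold by limma (0.00814, 0.0169 and 0.021). Rpl7, Rpl12, Rpl14 and Rpl27a were the subunit genes of the large subunit that did not pass, with SLRs of -0.14, -0.16, -0.02 and -0.18. Rpl12, Rpl14 and Rpl27a have brighter probe sets that also carry pseudogene names and were left out by the rule. Those fell by 0.32, 0.36 and 0.24 (limma adjusted p of 0.00536, 0.00161 and 0.0282). Rpl39 has such a brighter probe set too (mean 14.46 against 12.75), and there it was not called (SLR -0.21, limma adjusted p = 0.0566).

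Among the paralogues, Rpl39l, a paralogue of Rpl39 known from testis, was the 1 member that was higher at 4 weeks. It was at 8.87, 9.00 and 8.59 in sham and at 9.05, 9.07 and 9.47 in DMM, and the nearest pools of the groups, at 9.00 and 9.05, lay close to each other. The SLR was 0.38 ± 0.132 (SE, limma adjusted p = 0.0492), and without DMM replicate 3, the highest pool, it was 0.24 with an adjusted p of 0.255. Leaving out DMM replicate 1 kept the call, and leaving out any other pool of the 6 lost it. Its highest group mean was that of DMM at 2 weeks, 9.38 ± 0.11 (SD, n = 2), against 9.20 ± 0.261 (SD, n = 3) in sham at 2 weeks. At 8 and 16 weeks all 4 group means lay between 8.76 and 8.81. Rps27l, a target of p53, and Rpl22l1, the paralogue of Rpl22, had SLRs of -0.12 and -0.11 at 4 weeks (limma adjusted p of 0.126 and 0.143). Rpl7l1, Rps4l and Rps19bp1, a protein that binds Rps19, had SLRs of 0.01, -0.01 and 0.00.

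Probe sets of the same gene mostly moved alike. In 15 of the 20 members with several tested probe sets, all had an SLR below 0 at 4 weeks, and in 7 of the 20 all were called lower. Rps3 and Rpl22, which were called lower, also had a probe set above 0, at 0.02 and 0.09, that was not called. The exceptions with a call the other way were Rps24, where 4 probe sets were lower and 1 was higher at 0.41, and Rpl7l1, where the second probe set was higher at 0.29. Both were chosen after their values were seen. Letting in the probe sets that also carry pseudogene names, and leaving out paralogues, gave 68 subunit genes, of which 62 were lower at 4 weeks and none higher, with a median SLR of -0.26. Of the 25 among them that are not members, 23 were lower, Rpl32 by 0.32, Rplp1 by 0.26, Rpl5 by 0.23 and Rpl3 by 0.20 (limma adjusted p of 0.00405, 0.0189, 0.0251 and 0.0272), while Rpl10 had an SLR of -0.19 (limma adjusted p = 0.0536). Such probe sets can take up transcripts of the near-identical pseudogenes, as those ending in _x_at can, which 13 of the 50 members used.

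The difference at 4 weeks depended on how the arrays were put on a common scale. After quantile normalization, which gives every array the same distribution, 4 of the 49 members were called, all lower, with a median SLR of -0.07. With that scaling 825 of all 11488 genes were lower and 1354 higher, and the median of all genes was -0.04. Rps27 (-0.24, limma adjusted p = 0.00672) and Rpl27 (-0.19, limma adjusted p = 0.0461) were among the 4 members, while Rpl39l was at 0.33 (limma adjusted p = 0.0783). With the arrays centred on the 202 other bright genes, 7 members were lower and 1 higher, with a median of -0.10, while the median of all genes moved from -0.02 to 0.13. Of all 11488 genes 88 were then lower and 3545 higher. The median of the members stayed below 0 in all 19 settings tried, from -0.28 to -0.07. The SLR also followed the signal in genes outside the rule. Their median was -0.01 for means of 7.93 to 9, -0.06 for 11 to 12, -0.13 for 12 to 13 and -0.17 for 13 to 14 and for 14 to 16, where the members had -0.26 in both. Of the 202 other bright genes 59 were lower (29.2%) and 12 were higher (5.94%). The part of the signal range or of the normalization in the members' difference was not tested beyond these values.

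**Figure D3:**
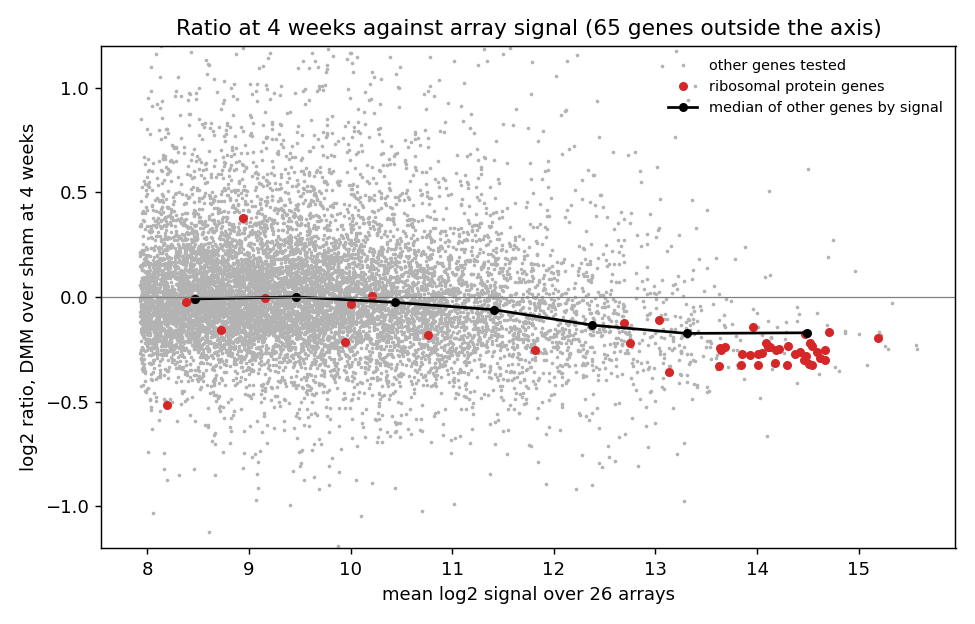
Each point is 1 gene, with its mean log2 signal over 26 arrays on the x axis and its log2 ratio, DMM over sham at 4 weeks, on the y axis, red for the 49 ribosomal protein genes, grey for all others, and black for the median of the others by signal (65 genes lie outside the y axis). The black line falls from about -0.01 at low signals to -0.17 above 13, and most red points above 13 lie below it, around -0.26.

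Marker genes of several cell types moved between the same pools. As mean signals over a list, skeletal muscle (8 genes) was at 12.95 to 13.03 in sham and at 12.04 to 12.40 in DMM at 4 weeks, and dividing cells (6 genes) at 12.62 to 12.77 and 12.14 to 12.49. Neutrophil markers (8 genes) were at 14.53 to 14.73 and 14.30 to 14.50, and erythroid markers (4 genes, 3 above the filter) at 11.24 to 11.44 and 10.58 to 11.26. The first 3 lists were lower in the DMM pools without overlap, while the erythroid list and B cell precursors (7 genes, 9.83 to 9.98 and 9.06 to 9.91) overlapped. Fat cell markers were lower too (4 genes, 10.44 to 10.52 and 9.70 to 9.99), and synovial lining and fibroblast markers were higher (6 genes, 12.62 to 13.01 and 13.25 to 13.82), as were chondrocyte markers (8 genes, 11.29 to 11.70 and 11.77 to 12.41). By gene, 4 of 6 dividing cell, 2 of 8 neutrophil and 3 of 4 fat cell markers were called lower, 4 of 6 fibroblast markers were called higher, and none of the muscle or erythroid markers was called. With the mean of the marrow lists (erythroid, neutrophil and B cell precursor) as a covariate, 1 member was called at 4 weeks, Rpl11, and the median SLR was -0.18. With the muscle list as a covariate 36 were called, all lower, with a median of -0.27. The part of fat cells, fibroblasts, chondrocytes and dividing cells in the members' difference was not tested.

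Reference genes moved too. Gapdh fell by 0.25 and Hprt by 0.24 at 4 weeks (limma adjusted p of 0.0245 and 0.00859), Actb had an SLR of -0.18 (limma adjusted p = 0.158), and Tbp one of 0.12 (limma adjusted p = 0.238). The log2 ratio of the 3′ to the 5′ Gapdh probe sets, a sign of RNA integrity, was 0.31 to 0.47 in sham and 0.33 to 0.48 in DMM at 4 weeks, and with it as a covariate 35 members were lower and 1 higher, as without it.

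DMM and sham joints were compared at the other weeks in the same way. At 2 weeks none of the 49 members was called by limma, where 1.91% of all genes were higher and 0.914% lower. None of the members had an unadjusted p under 0.05, against 2370 of all 11488 genes. The median SLR of the members was -0.06, and DMM had 2 pools. At 8 weeks none of the members was called by limma, nor was any other gene (0% in either direction), and the median was 0.00. An unadjusted p under 0.05 was found for 5 members and for 1414 of all genes. At 16 weeks none of the members was called by limma, where 0.0522% of all genes were higher and 0% lower, and the median was 0.03. No member had an unadjusted p under 0.05, against 941 of all genes. Averaged over the 4 weeks, 5 members were lower and none higher, where 6.57% of all genes were lower and 12.5% higher. They were Rps27 (SLR -0.12), Rpl8 (-0.11), Rps9 (-0.10), Rpl27 (-0.10) and Rpl11 (-0.09), and without the groups at 4 weeks none was called. This count ranged from 0 to 19 when 1 pool was left out, with 19 without DMM replicate 3 at 16 weeks and 0 without sham replicate 2 at 4 weeks, DMM replicates 2 or 3 at 8 weeks or DMM replicate 2 at 16 weeks.

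Whether the DMM effect at 4 weeks differed from that at another week was tested as an interaction. Against 8 weeks the median difference was -0.24. None of the members was called by limma, where 1.43% of all genes were higher and 0.2% lower. An unadjusted p under 0.05 was found for 29 members and for 3393 of all 11488 genes. The lowest adjusted p were those of Rpl8 (-0.37, limma adjusted p = 0.0559) and Rpsa (-0.40, limma adjusted p = 0.056). The count of calls rested on single pools, since without sham replicate 1 at 8 weeks 21 members were called lower, and without DMM replicate 1 at 4 weeks 9 were. Against 2 weeks the median difference was -0.19, and 15 members and 506 of all genes had an unadjusted p under 0.05. Against 16 weeks it was -0.28, with 37 members and 1499 of all genes. None of the members was called by limma in either comparison, nor was any other gene (0%). With array weights 34 members were called against 8 weeks and 36 against 16 weeks. The effect at 4 weeks was therefore called within its own week, and its difference from 8 and 16 weeks passed the threshold in some settings only. Its difference from 2 weeks was called for no member, whichever pool was left out.

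Sham joints at 4 weeks were compared with the unoperated joints to see where that difference lay. The comparison shares the sham pools with the previous one and is not independent of it. Of the 49 members 7 were higher in sham at 4 weeks and none was lower, where 0.47% of all genes were higher and 0.557% lower, and the median SLR was 0.23. They were Rpl35 (0.36), Rps27 (0.35), Rpl13a (0.33), Rps7 (0.31), Rps14 (0.30), Rps9 (0.28) and Rps20 (0.26), with adjusted p from 0.0248 to 0.0476 by limma. In 40 members all sham pools were above all time 0 pools, and in none below, where 14.7% and 9.56% of all genes were. Leaving out any 1 of the 6 pools left 0 to 2 of these calls, and after quantile normalization none was left and the median was 0.03, with 0.01 for all genes. Centred on the other bright genes, 2 members were higher and 3 lower, where 21 of all 11488 genes were higher and 2553 lower. The median of the members was then 0.05 and that of all genes -0.16. Several measures moved between the same pools. The log2 ratio of the 3′ to the 5′ Gapdh probe sets was 0.21 to 0.28 at time 0 and 0.31 to 0.47 in sham at 4 weeks, and with it as a covariate none of the members was called by limma and the median was 0.21. Muscle markers were at 11.18 to 12.39 at time 0 and at 12.95 to 13.03 in sham, neutrophil markers at 14.36 to 14.43 and 14.53 to 14.73, chondrocyte markers at 12.30 to 12.50 and 11.29 to 11.70, and fat cell markers at 10.88 to 11.26 and 10.44 to 10.52, all without overlap. With the marrow lists as a covariate none was called and the median was 0.19, and with the muscle list 12 were called higher and the median was 0.26. The part of the chondrocyte and fat cell markers was not tested. DMM joints at 4 weeks against time 0 had a median SLR of -0.01. None of the members was called there by limma, where 7.86% of all genes were higher and 1.85% lower. An unadjusted p under 0.05 was found for 1 member and for 2846 of all 11488 genes.

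**Figure D4:**
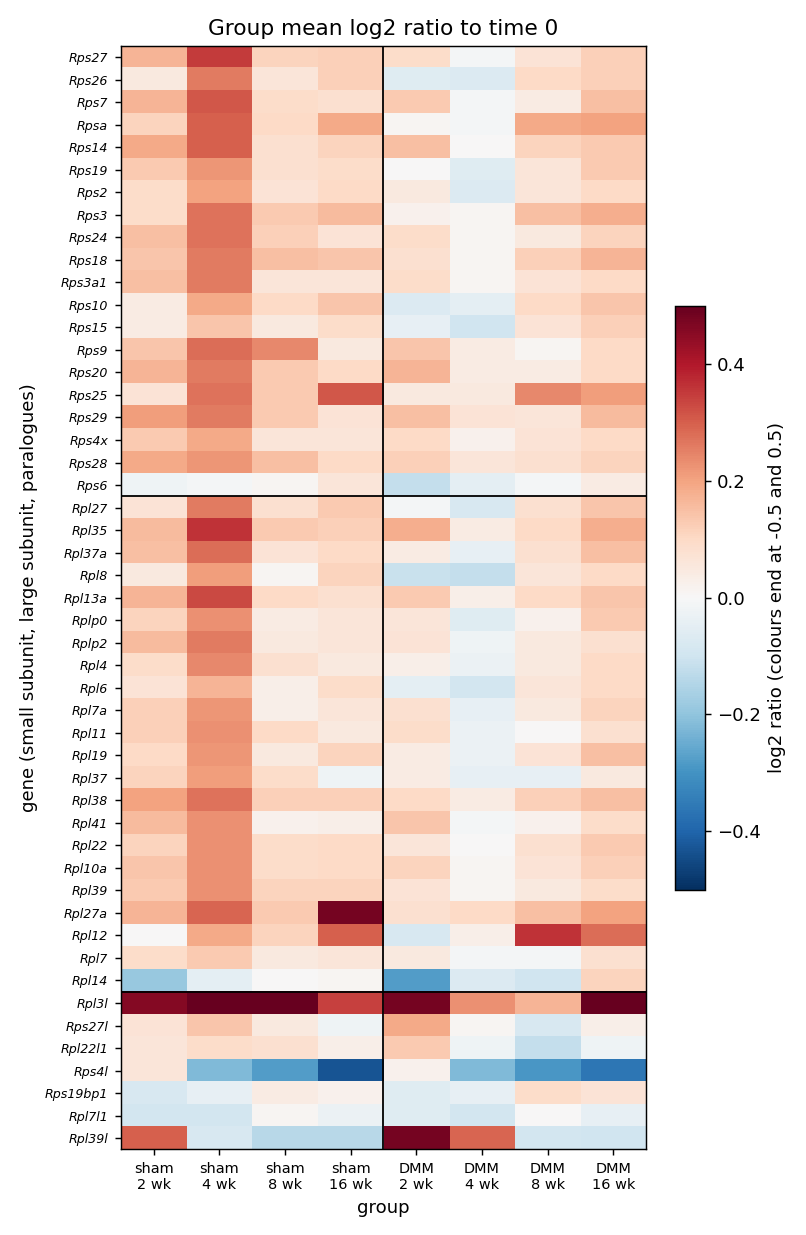
Colours give the group mean log2 ratio to time 0 of each of the 49 genes (rows, by role) in the 8 operated groups (columns), with colours ending at -0.5 and 0.5. The column of sham at 4 weeks is the reddest for the subunit genes (median SLR 0.23) and that of DMM at 4 weeks is near white (median -0.01), while Rpl3l, Rps4l and Rpl39l follow courses of their own.

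At 2 and 8 weeks none of the members was called by limma between sham and time 0, with median SLRs of 0.12 and 0.08. An unadjusted p under 0.05 was found for 18 and 4 members, and for 2227 and 1973 of all 11488 genes. Without sham replicate 1 at 2 weeks 5 members were called at that week. In these comparisons 1.64% and 0.461% of all genes were higher and 0.374% and 0.575% lower. At 16 weeks 1 member was higher and 1 lower, where 1.49% and 4.91% of all genes were. Rps25, a small subunit protein needed for some internal ribosome entry sites, was at 9.78, 9.76 and 9.83 at time 0 and at 10.16, 10.04 and 10.09 in sham at 16 weeks. All sham pools were higher (SLR 0.31 ± 0.0745, SE, limma adjusted p = 0.0171), and the DMM pools at 16 weeks were at 9.94, 9.97 and 10.10. The call was lost without time 0 replicates 1 or 2 or sham replicates 1 or 3 (0.27 to 0.34 over the pools left out), centred on bright genes (0.23, limma adjusted p = 0.0585) and with the Gapdh ratio as a covariate (0.23, limma adjusted p = 0.115). The probe set had a mean signal of 9.94. A brighter one of Rps25 (mean 14), which also carries pseudogene names, was left out by the rule. It belongs to the wider set of 68 subunit genes, of which none was called in this comparison. Rps4l was at 8.98, 8.52 and 8.48 at time 0 and at 8.26, 8.24 and 8.18 in sham at 16 weeks, so that time 0 replicate 1 was set apart from its group. The SLR was -0.43 ± 0.127 (SE, limma adjusted p = 0.0474), and -0.27 without that pool (limma adjusted p = 0.276). The call was also lost without any 1 of the sham pools. Rps4l was also at 8.46, 8.21 and 8.21 in DMM at 16 weeks, of which replicate 1 was above the sham pools. Rpl27a had an SLR of 0.48 there, through sham replicate 1 at 11.69, while the other sham pools were at 10.75 and 10.73 and the time 0 pools at 10.44 to 10.67 (limma adjusted p = 0.0909).

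Rpl3l, the paralogue of Rpl3 that replaces it in skeletal and heart muscle, varied most of all members. It ranged from 7.36 to 9.19 over the 26 pools, and both ends were sham pools at 2 weeks, replicates 3 and 1. At 4 weeks it was at 8.31, 8.50 and 8.57 in sham and at 8.01, 7.95 and 7.87 in DMM, without overlap, and at 8 weeks at 9.00, 8.79 and 8.42 in sham and at 7.64, 7.78 and 8.22 in DMM. Neither difference was called (SLR -0.52 ± 0.326 and -0.86 ± 0.326, SE, limma adjusted p of 0.269 and 0.308). Across the 26 pools it followed the mean signal of 8 skeletal muscle markers, with a Pearson r of 0.93 and a Spearman rho of 0.98 (permutation p = 1e-05 for each, the smallest that 100000 permutations can give; Benjamini-Hochberg adjusted p = 3e-05 over 3 marker lists). Without the 2 pools farthest from the median of the muscle list r was 0.96, within the 12 sham pools 0.95, within the 11 DMM pools 0.93, and 0.94 for deviations from the group means. For chondrocyte and erythroid markers r was -0.26 and 0.31, with rho of -0.30 and 0.20 and permutation p from 0.12 to 0.33 (adjusted 0.18 to 0.33).

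**Figure D5:**
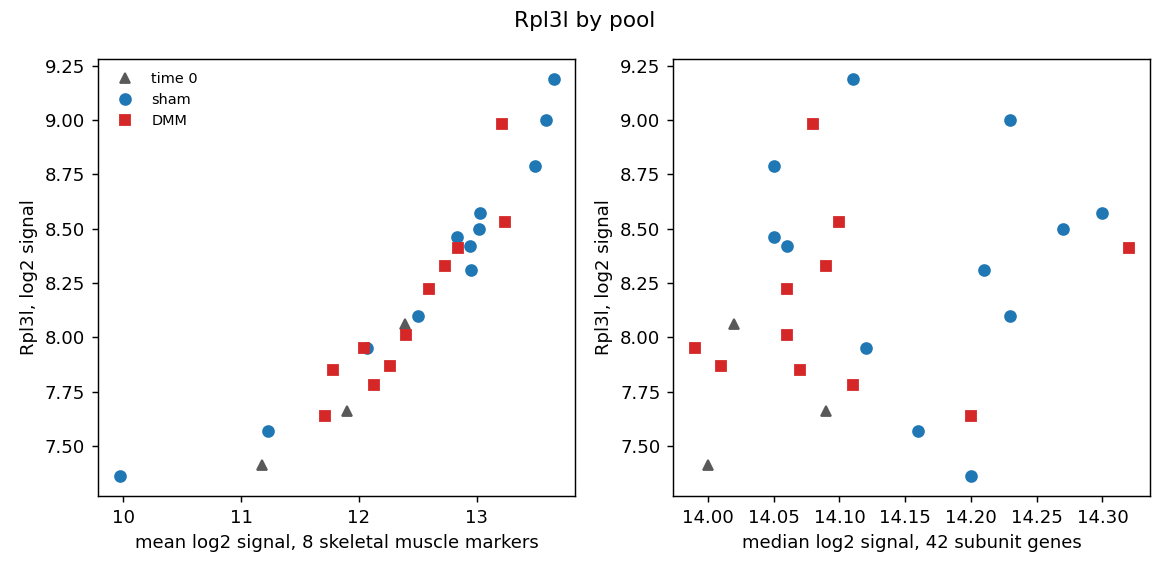
Each point is 1 of the 26 pools, with the log2 signal of Rpl3l on the y axis against the mean log2 signal of 8 skeletal muscle markers (left) and against the median log2 signal of the 42 subunit genes (right). Rpl3l lies along a line with the muscle markers (r = 0.93) and scatters against the subunit genes.

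Among themselves most members rose and fell together from pool to pool. The Pearson r of a member with the median of the other members over the 26 arrays was at least 0.8 in 28 of 49, its median over the subunit genes was 0.84, and it was below 0.5 in 9. Of those 9, 6 were Rpl39l (-0.39), Rps4l (-0.25), Rpl7l1 (-0.23), Rps19bp1 (0.03), Rps27l (0.10) and Rpl22l1 (0.15), the seventh was Rpl3l (0.21), and the others were Rpl14 (0.02) and Rps6 (0.07). All 7 paralogues and near names were thus among the 9. Apart from Rpl22l1 (mean signal 13.04) and Rps27l (12.69), the 9 had mean signals of 8.19 to 10.21, and the part of the signal was not tested. Rpl14 and Rps6 also have brighter probe sets that carry pseudogene names (means 13.78 and 14.9). Those had SLRs of -0.36 and -0.29 at 4 weeks and are not part of these r values. Outside the rule, the genes most like the median of the members were Fau (r = 0.94), Gpx1 (0.92), Snrpg (0.90), Oaz1 (0.90), Pabpc1 (0.89), D630045J12Rik (0.89), Serinc3 (0.87), Eif3h (0.87), Cntd1 (0.86) and Mir142 (0.86). Fau encodes a fusion of a ubiquitin-like protein with the small subunit protein S30, and it fell by 0.27 at 4 weeks (limma adjusted p = 0.0104). Arrays share a scale factor for all genes, so these r values are descriptions.

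Other genes of protein synthesis, taken from lists by function, had median SLRs closer to 0 at 4 weeks, where 7.05% of all genes were lower and 13.2% higher. The lists were not matched to the members for signal, and the 202 other bright genes had a median of -0.17. Of 27 translation initiation genes 7 were lower and none higher, with a median SLR of -0.10. Pabpc1, which binds the poly(A) tail, fell by 0.34 and Eif5 by 0.39 (limma adjusted p of 0.0236 and 0.0111), while Eif4g2 had an SLR of -0.01. Of 10 elongation and nascent chain genes only Eef1b2 was called, and it fell by 0.19 (limma adjusted p = 0.0167). The median of that list was -0.16, with 6 genes lower and 1 higher without overlap of the pools. Eef1a1 and Tpt1 had SLRs of -0.16 and -0.17 (limma adjusted p of 0.134 and 0.175). Of 35 ribosome biogenesis genes 6 were lower and 1 higher, with a median of -0.05. Npm1, a nucleolar chaperone, fell by 0.15 (limma adjusted p = 0.033), Ncl had an SLR of 0.00, and Rrp9, which binds the U3 RNA, was the 1 that was higher (0.35, limma adjusted p = 0.0172). Of 74 proteins of the mitochondrial ribosome 11 were lower and none higher, with a median of -0.11. Mrps14 fell by 0.24, Mrpl51 by 0.20 and Mrpl14 by 0.25 (limma adjusted p of 0.00655, 0.0272 and 0.0419). None of the 10 genes of the S6 kinase and mTOR pathway was called by limma, and their median was -0.03. None of the 10 had an unadjusted p under 0.05, against 4152 of all 11488 genes. Between sham at 4 weeks and time 0 these lists had medians from 0.00 for the mitochondrial ribosome to 0.13 for elongation, with 1 initiation gene called higher.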

How the data were processed

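Total RNA from pools of 3 mice was hybridised to Affymetrix mouse whole-genome expression arrays, 26 in all. Per the labels, a 3′-IVT protocol was used. The deposited values are log2 signals, which the authors normalized by systematic variation normalization. The precision is limited by the number of arrays. Gene symbols came from GEO's platform annotation (34958 probe sets with 1 symbol, 932 with several, 9211 with none), and every gene was read from the probe set with the highest mean.

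Comparisons used limma 3.58.1 in R 4.3.3 on the log2 values, with 1 coefficient for each of 9 groups (17 residual degrees of freedom), over the 22482 probe sets with a mean above 7.93, the median of the array medians. Calls were made at a Benjamini-Hochberg adjusted p under 0.05, and the code was tested on simulated data. The members, gene lists and tests were chosen with earlier results of these data known. Named were the called members with the 3 highest and 3 lowest ratios per comparison, the 3 members highest and 3 lowest in signal, the 5 with the largest and 5 with the smallest SD, and members listed by role. Another scaling, filter, weighting, covariate or probe set choice, a replicate block and leaving out each pool were the alternatives. The interactions against 2 and 16 weeks and DMM at 4 weeks against time 0 were chosen after seeing the data, as were centring on bright genes, the wider set of probe sets and the mean without 4 weeks. No column of values was left unused.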

Additional observations from a re-analysis of the deposited data

How the results depend on the processing

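The median SLR of the members kept its sign in all settings tried at 4 weeks for DMM against sham (-0.28 to -0.07) and for sham against time 0 (0.03 to 0.26), while the counts of members called moved. DMM against sham at 4 weeks had 36 calls, which became 14 with only its 2 groups in the fit, 4 with quantile normalization, 1 with the marrow covariate, 8 centred on bright genes and 62 of 68 with the wider set. Sham against time 0 at 4 weeks had 7 calls, which became 4 without the brightness filter, 1 with only its groups, 31 with array weights, 0 with quantile normalization, 0 with the Gapdh covariate, 12 with the muscle and 0 with the marrow covariate, 4 without _x_at and _s_at probe sets, 16 with an intensity trend and 16 with the wider set. The mean DMM effect had 5 calls, which became 0, 3, 1, 0, 3 and 0 without the filter, with only its groups, with weights, quantiles, the Gapdh and the marrow covariate, 8 with the mean of all probe sets, 1 centred on bright genes, 9 with the wider set and 0 without 4 weeks. Sham against time 0 at 16 weeks had 2 calls, which became 1 without the filter, with only its groups, with quantiles and centred on bright genes, and 0 with the Gapdh covariate and with the wider set. Comparisons with 0 calls rose with array weights to 4 (DMM against sham at 8 weeks), 3 (sham against time 0 at 8 weeks), 34 and 36 (the effect at 4 weeks against 8 and 16 weeks) and 4 (DMM at 4 weeks against time 0), with the muscle covariate to 1 (sham against time 0 at 2 weeks) and 7 (4 against 8 weeks), and with the marrow covariate to 1 (sham against time 0 at 8 weeks). The cause was not tested.

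The deviations of same-numbered DMM and sham pools had r from -0.19 to 0.56 over 11 pairs. It was over 0.1 in 6 of them, with all 3 pairs at 8 weeks among these (0.48, 0.33 and 0.56). Since not every pair was over 0.1, and neither labels nor methods tie the numbers to a shared batch, the numbers were not taken as pairs. With the replicate block, DMM against sham at 4 weeks had 34 calls, sham against time 0 at 4 weeks 13 and the effect at 4 against 8 weeks 3.

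Leaving out 1 pool at a time gave 15 to 35 calls for DMM against sham at 4 weeks, the lowest without sham replicate 2 (15) and DMM replicate 2 (19). It gave 0 to 2 for sham against time 0 at 4 weeks and at 16 weeks, and 0 to 5 at 2 weeks (5 without sham replicate 1). For the mean effect it gave 0 to 19 (19 without DMM replicate 3 of 16 weeks), and for 4 against 8 weeks 0 to 21 (21 without sham replicate 1 of 8 weeks). Medians near 0 changed sign between pools left out, for DMM against sham at 8 weeks (-0.04 to 0.04) and 16 weeks (-0.04 to 0.06) and for DMM at 4 weeks against time 0 (-0.03 to 0.02), as did the uncalled ratios of Rps6 (-0.07 to 0.04), Rpl7l1 (-0.03 to 0.05) and Rps19bp1 (-0.06 to 0.05) at 4 weeks.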
